A study of Mus musculus with 94 samples.

Results

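Prss34, Mcpt8 and Cpa3 encode abundant proteases of basophil granules, and they were described here in single basophils of mouse bone marrow. These 3 genes were chosen by name and found by their Ensembl identifiers among 46078 mouse genes. Cells came from female C57BL/6 mice, 3 in the design, whose age the labels do not give. Both groups were live cells without lineage markers or Sca1 that carried FcεRI, the high-affinity receptor for IgE. One gate took CD34+ cells and the other CD34- cells, with 47 cells each, and 46 of each were kept. CD34 marks the surface of stem and progenitor cells of the blood. The labels do not assign cells to mice, so a gate is a single sample, the gates were compared without a test, and intervals cover counting error only.

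Basophils are rare granulocytes that bind IgE and store mediators in secretory granules. Granule proteases are made on the rough endoplasmic reticulum, pass through the Golgi apparatus and are packed with serglycin, a proteoglycan whose negatively charged sugar chains hold positively charged proteases. Prss34 encodes a tryptase-like serine protease of mouse basophils. Mcpt8 encodes a serine protease related to granzymes and is widely used as a marker of mouse basophils. Cpa3 encodes carboxypeptidase A3, a zinc-dependent enzyme that trims residues from the C-terminal end of peptides, and it is shared by basophils, mast cells and their progenitors.

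The genes lie on different chromosomes, each beside relatives of its own family, in the GRCm38 build with GENCODE annotation. Prss34 (ENSMUSG00000056399, chr17:25298394-25300165, plus strand, 5 exons) has Prss28 8481 bases downstream. Mcpt8 (ENSMUSG00000022157, chr14:56082166-56085273, minus strand, 5 exons) lies between Mcpt4, at a distance of 19853 bases, and Ctsg, at 14608 bases. Cpa3 (ENSMUSG00000001865, chr3:20215620-20242181, minus strand, 11 exons) lies 6083 bases from Cpb1. None overlaps an exon of another gene, and 0 of 1171, 787 and 1400 windows of 50 bases in the Prss34, Mcpt8 and Cpa3 transcripts matched a transcript of another gene.

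The sequences before the start sites are shown because the 3 genes were correlated over the cells of each gate although they share no locus. They were taken from RefSeq on GRCm38.p6 and are written 5′ to 3′ on the gene's strand, ending at the base before the first exon. The windows are chr17:25298144-25298393 (plus strand) for Prss34, chr14:56085274-56085447 (minus strand) for Mcpt8 and chr3:20242182-20242431 (minus strand) for Cpa3. The Mcpt8 window has 174 bases, since the 76 bases nearest its RefSeq start are exonic in a longer GENCODE transcript and are not printed. Capitals mark every printed match to a motif searched.
Prss34: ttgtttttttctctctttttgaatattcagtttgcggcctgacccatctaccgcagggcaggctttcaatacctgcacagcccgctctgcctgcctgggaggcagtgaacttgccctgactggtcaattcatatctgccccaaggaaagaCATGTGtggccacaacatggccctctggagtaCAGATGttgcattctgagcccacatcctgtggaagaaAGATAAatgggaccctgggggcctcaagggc
Mcpt8: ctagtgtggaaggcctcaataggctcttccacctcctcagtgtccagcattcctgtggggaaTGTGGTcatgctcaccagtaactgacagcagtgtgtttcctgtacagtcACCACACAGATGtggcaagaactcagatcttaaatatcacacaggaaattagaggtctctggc
Cpa3: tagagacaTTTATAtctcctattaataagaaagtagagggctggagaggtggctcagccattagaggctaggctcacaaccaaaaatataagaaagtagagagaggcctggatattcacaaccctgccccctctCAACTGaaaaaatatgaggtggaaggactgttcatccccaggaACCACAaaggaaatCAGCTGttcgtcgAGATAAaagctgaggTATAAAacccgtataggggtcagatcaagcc

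Motifs were searched on both strands in the 250 bases before each RefSeq start, with the first base before the start as position -1. Prss34 held 1 AGATAA, a form of the element bound by GATA factors, at -31 to -26, and Cpa3 held 1 at -46 to -41. Of all 32851 promoters in the table, 9.99% held this motif, and the Mcpt8 window held none. The E-box CANNTG was found 2 times in Prss34, 3 times in Mcpt8 and 2 times in Cpa3, against a share of 66.2% of all promoters with at least 1. In Mcpt8, 1 E-box is in the printed part and overlaps no other match. The E-box of Prss34 at -100 to -95 also matched CATGTG, a form bound by MITF, which 12.3% of promoters held. The element of RUNX factors, TGTGGT, was found 2 times in Mcpt8 and 1 time in Cpa3, with a share of 14.05%. TATAAA was found 2 times in Cpa3, at -31 to -26 and on the other strand at -242 to -237, and 12.4% of promoters held it. TGATAA (7.94% of promoters), TTGCNNAA (9.56%), TTCNNNGAA (7.02%) and GGAAGT (19.7%) had no match in the 3 windows. These matches describe letters and not binding.

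The kept CD34-negative cells had 262944 to 938322 gene reads each, with a median of 737059, and the CD34-positive cells 374011 to 1154740, with a median of 633178. Medians of 5303.5 and 7511.5 genes were found per cell, and the median number of gene reads per read of the ERCC spike-in was 6.87 and 14.4. Basophil markers (Fcer1a, Ms4a2, Il3ra, Cd200r3, Hdc, Gata2, Itga2, Cyp11a1) summed to 9711 to 21967 CPM, or counts per 1000000 gene reads, in 45 CD34-negative cells and to 4408 to 17803 CPM in the CD34-positive cells. Cell 10 of the CD34-negative gate went against its label. Its basophil marker sum was 45.6 CPM, with Hdc and Cyp11a1 at 0. It had 966 CPM of Csf1r, a receptor of monocytes and macrophages, against at most 147 CPM in the other CD34-negative cells. Of the other markers of monocytes and dendritic cells, Itgax (445 CPM) and Ly86 (255 CPM) were above all 45 other cells. Ccr2 (977 CPM) was above 37 of those 45, and Cx3cr1 and Flt3 were at 0. Cell 10 stays in the values below, and the main CD34-negative levels, folds, shares and correlations are also given without it. Among the 9 mast cell markers, 5 were at 0 in both gates, and their sum was 0.0299 CPM among CD34-negative cells and 7.33 CPM among CD34-positive cells.

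The 3 genes together took 3.41% of all gene reads of the CD34-negative cells and 8.87% of those of the CD34-positive cells. In single cells the summed level ran from 70.0 to 127123 CPM (median 9289) in the CD34-negative gate and from 294 to 160118 CPM (median 81242) in the CD34-positive gate. By reads, Prss34 ranked 2 of all genes in the CD34-negative gate and 1 in the CD34-positive gate, Mcpt8 ranked 6 and 3, and Cpa3 ranked 30 and 7. Every kept cell had at least 1 read of each gene, cell 10 included, so the presence of a read did not separate cells.

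**Figure D1:**
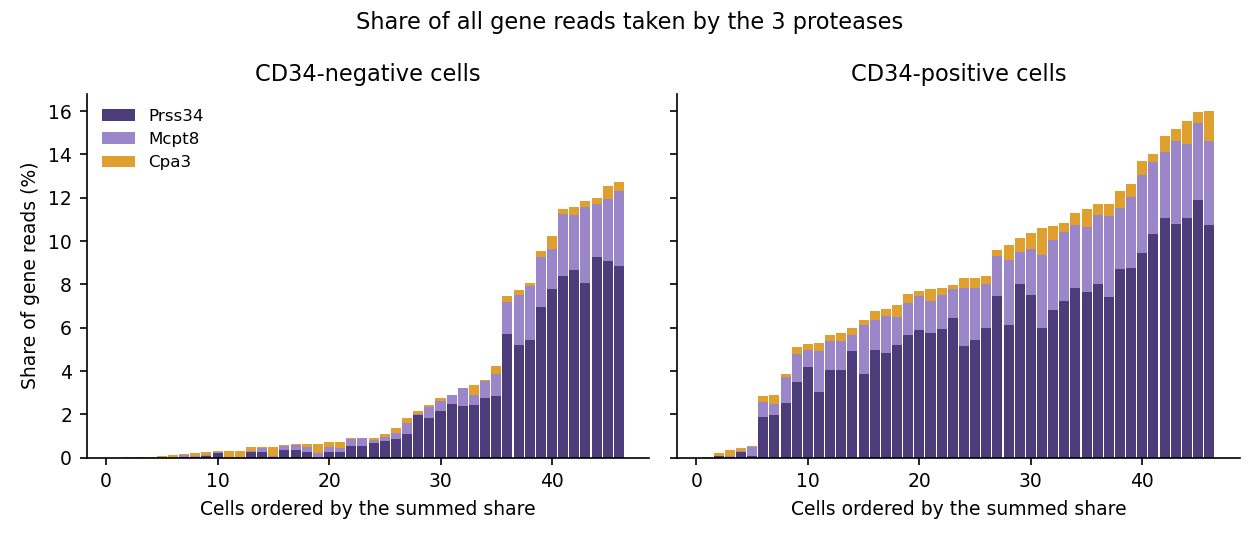
Share of gene reads (percent) taken by Prss34, Mcpt8 and Cpa3 in each kept cell, stacked, with the 46 cells of each gate ordered by the summed share. The 3 genes took 3.41% of reads over the CD34-negative gate and 8.87% over the CD34-positive gate, and the highest cells of the gates are much closer than their middle cells.

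Prss34 differed most between the gates in the lower part of its range. In the CD34-negative cells it ran from 17.5 CPM (cell 3, 16 reads) through a lower quartile of 652, a median of 6161 and an upper quartile of 28388 to 92634 CPM (cell 25). In the CD34-positive cells it ran from 50.1 CPM (cell 1) through 40370, 59397 and 77940 to 118824 CPM (cell 33). The gates overlapped: 8 CD34-negative cells were above the CD34-positive median and 5 CD34-positive cells were below the CD34-negative median. The CD34-positive value was 61.9 times the CD34-negative one at the lower quartile, 9.64 times at the median, 2.75 times at the upper quartile and 1.28 times at the highest cell.

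The CD34-negative cells were also spread unevenly in Prss34. There were 11 cells at 50000 CPM or more, and the next cell below them stood at 28719 CPM, while the lowest of the 11 stood at 52098 CPM. These 11 cells held 77.2% of the gate's Prss34 reads. The same 11 cells were those with at least 10000 CPM of Mcpt8. In the CD34-positive gate 29 cells reached 50000 CPM, all of them among the 37 with 10000 CPM of Mcpt8, and the 11 highest cells held 49.4% of reads. The coefficient of variation over cells was 1.32 for CD34-negative cells and 0.545 for CD34-positive cells.

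Mcpt8 had the same shape at a lower level. It ran from 10.6 CPM (cell 18, 6 reads) through 491, 2539 and 9342 to 35141 CPM (cell 46) in the CD34-negative cells, these being the quartiles and the median between the extremes. The CD34-positive cells ran from 13.35 CPM (cell 1) through 13077, 18795 and 31311 to 38893 CPM (cell 16). The ratio between gates was 26.6 at the lower quartile, 7.40 at the median, 3.35 at the upper quartile and 1.11 at the highest cell. Of the CD34-negative cells, 10 were above the CD34-positive median, and 4 CD34-positive cells were below the CD34-negative median.

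As a ratio of the upper to the lower quartile, Cpa3 had a narrower range than the serine proteases in CD34-negative cells, though not narrower than Prss34 in CD34-positive cells. It ran from 2.06 CPM (cell 19, 1 read) through 609, 1499 and 2940 to 5960 CPM (cell 34) in the CD34-negative cells. In the CD34-positive cells it ran from 230 CPM (cell 1) through 2795, 4266 and 6019 to 13767 CPM (cell 16). Its ratio between gates was 4.59 at the lower quartile, 2.85 at the median, 2.05 at the upper quartile and 2.31 at the highest cell. At the lowest cell the ratio was 112 for Cpa3, with 1 read behind the CD34-negative value, against 2.86 for Prss34 and 1.26 for Mcpt8. Only 3 CD34-negative cells were above the CD34-positive median, and 12 CD34-positive cells were above the highest CD34-negative cell. The SD of log2 CPM over cells was 2.52 for CD34-negative cells and 1.08 for CD34-positive cells, against 3.92 and 2.36 for Prss34. The coefficient of variation was 0.841 for Cpa3 in CD34-negative cells, below 1.32 for Prss34 and 1.35 for Mcpt8, but in CD34-positive cells it was 0.608 for Cpa3, above 0.545 for Prss34 and 0.574 for Mcpt8. Without cell 10 the CD34-negative medians were 6702 CPM for Prss34, 2546 CPM for Mcpt8 and 1582 CPM for Cpa3, and the ratios at the median were 8.86, 7.38 and 2.70.

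**Figure D2:**
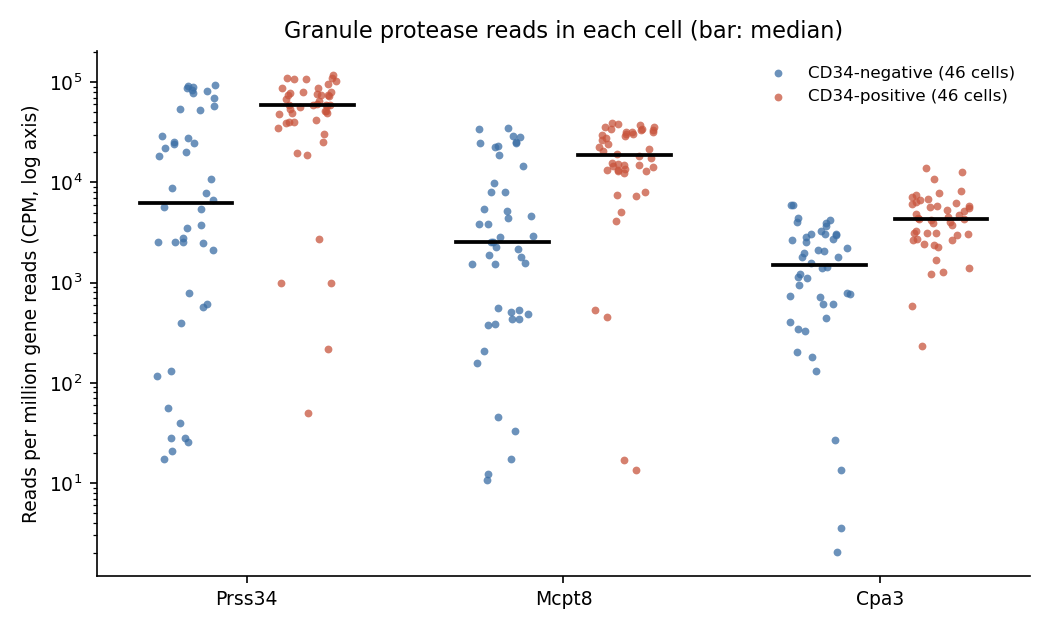
Reads of Prss34, Mcpt8 and Cpa3 per 1000000 gene reads in each of the 46 kept cells per gate, on a log axis, with a bar at the median. The Prss34 medians are 6161 and 59397 CPM, while the highest cells of both gates lie within 92634 and 118824 CPM.

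Summed over a gate, the 3 genes stood in nearly the same ratio between gates. Prss34 had 807443 reads or 24143 CPM (24090 to 24196, exact Poisson 95% interval) among CD34-negative cells and 1878934 reads or 62565 CPM (62476 to 62655) among CD34-positive cells. The log2 fold of CPM + 1 was 1.37 (1.37 to 1.38). Mcpt8 had 269180 and 637384 reads, or 8049 CPM (8018 to 8079) and 21224 CPM (21172 to 21276), a log2 fold of 1.40 (1.39 to 1.41). Cpa3 had 64800 and 146283 reads, or 1938 CPM (1923 to 1953) and 4871 CPM (4846 to 4896), a log2 fold of 1.33 (1.31 to 1.35). Without cell 10 the 3 folds were 1.36, 1.39 and 1.32. A log2 fold of 1 or more was common, with 21.7% of the 12460 genes with reads in at least 10 cells that high and 10.1% at -1 or less. CD34-positive cells had the higher value for 58.9% of these genes, or 87.6% under ERCC scaling and 50.3% under scran size factors. The median log2 fold of all genes was 0.19, which became 1.04 when cells were scaled by ERCC reads and 0.00 with scran size factors. Relative to ERCC reads the log2 folds were 2.34 for Prss34, 2.36 for Mcpt8 and 2.30 for Cpa3. The ratio of medians over cells gave 3.27, 2.89 and 1.51 on the log2 scale, a larger gap for both serine proteases than for Cpa3.

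Most cells passed 1000 CPM of each gene, and the CD34-positive cells did so in larger numbers. For Prss34 these were 33 of 46 CD34-negative cells, or 71.7% (56.5% to 84.0%, Clopper-Pearson 95% interval), and 43 of 46 CD34-positive cells, or 93.5% (82.1% to 98.6%). For Mcpt8 the shares were 67.4% (52.0% to 80.5%) and 91.3% (79.2% to 97.6%), and for Cpa3 60.9% (45.4% to 74.9%) and 95.7% (85.2% to 99.5%). Without cell 10 the CD34-negative shares were 73.3%, 68.9% and 62.2%. All 3 genes passed in 21 CD34-negative cells, or 45.7% (30.9% to 61.0%), and in 41 CD34-positive cells, or 89.1% (76.4% to 96.4%). No gene passed in 7 CD34-negative cells, of which cell 10 was 1, and in 1 CD34-positive cell.

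The remaining CD34-negative cells held mixed states. Prss34 and Mcpt8 passed without Cpa3 in 9 cells, Cpa3 passed alone in 5, Prss34 alone in 2, and 1 cell each had Prss34 with Cpa3 and Mcpt8 with Cpa3. Cell 5 had 25015 CPM of Prss34 and 3844 CPM of Mcpt8 beside 13.6 CPM of Cpa3. Cell 22 likewise had 5380 and 3839 CPM of the serine proteases and 3.55 CPM of Cpa3. The opposite was seen in cell 24, with 28.2 CPM of Prss34, 32.9 CPM of Mcpt8 and 3047 CPM of Cpa3. Cell 23 had 20.6 CPM of Prss34, 436 CPM of Mcpt8 and 2705 CPM of Cpa3. The CD34-positive gate had 1 cell with both serine proteases but not Cpa3, 2 cells with Cpa3 alone and 1 with Prss34 and Cpa3.

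Cell 10 also gives the level found in a cell with almost no basophil marker reads, at 118 CPM of Prss34, 45.6 CPM of Mcpt8 and 26.6 CPM of Cpa3. Among the other 45 CD34-negative cells, 7 were not above it for Prss34, 4 for Mcpt8 and 3 for Cpa3, and cell 19 was the only one not above it for all 3. The 7 cells low in Prss34 (3, 12, 18, 19, 21, 23 and 24) had 644 to 2753 CPM of Fcer1a, a chain of the sorted receptor, and 929 to 4614 CPM of Gata2, a transcription factor that basophils need. Their basophil marker sums were 9711 to 16289 CPM. Single markers were low in some of them, with Cd200r3 at 20.6 CPM in cell 19, below cell 10, and Hdc at 101 CPM in cell 24. Cell 19 also had the fewest genes of the gate (3562) and its lowest number of gene reads per ERCC read (2.34), and the part of this in its levels was not tested. In the CD34-positive gate 1 cell was not above cell 10 for Prss34, 2 for Mcpt8 and 0 of 46 for Cpa3.

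Compared per length of transcript, the order of levels was Prss34, Mcpt8, Cpa3 in both gates. In CPM per kilobase the gate values were 19789, 9627 and 1337 in the CD34-negative gate and 51283, 25387 and 3362 in the CD34-positive gate. This order held in 28 of 46 CD34-negative cells and 41 of 46 CD34-positive cells. Cpa3 was the highest of the 3 in 10 cells of the CD34-negative gate and in 3 of the other gate. The per-length ratio of Prss34 to Mcpt8 had a median of 1.77 over CD34-negative and 2.02 over CD34-positive cells, with an SD of 1.83 and 1.05 on the log2 scale. Prss34 was the higher in 33 of 46 CD34-negative cells, with quartiles of the ratio at 0.970 and 2.59, and in 44 of 46 CD34-positive cells, with quartiles at 1.61 and 2.62. In the CD34-positive gate the ratio reached 0.168 in cell 35 and 39.7 in cell 41. The ratio of Prss34 to Cpa3 had a median of 8.22 in CD34-negative cells, with cells from 0.00905 to 2187 and an SD of 3.91 (log2). In CD34-positive cells its median was 14.7 and its SD 1.69.

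The serine proteases went together closely from cell to cell in both gates. Over 46 CD34-negative cells, Prss34 and Mcpt8 had a Spearman rho of 0.922 and a Pearson r of 0.890 on log2 CPM. Without the 2 cells farthest from the median of Prss34, r was 0.920, and without cell 10 rho was 0.920. Over 46 CD34-positive cells, rho was 0.851 and r 0.908, and 0.860 without the 2 farthest cells. In each gate Mcpt8 had the highest rho with Prss34 of any gene with at least 10 CPM and reads in at least 23 cells, and Prss34 had the highest with Mcpt8. This is 1 gene of 4126 in the CD34-negative gate (0.0242%) and 1 of 6590 in the CD34-positive gate (0.0152%). Per the labels' protocol all cells were sorted into a plate and their libraries pooled, and the levels in a cell share a total, so these values are descriptions.

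Cpa3 followed the serine proteases less closely in CD34-negative cells. Its rho was 0.435 with Prss34 (r 0.341, and 0.403 without the 2 cells farthest from the median of Prss34) and 0.482 with Mcpt8 (r 0.475, and 0.339 without the 2 farthest from the median of Mcpt8, cells 18 and 19). Without cell 10 these were 0.415 and 0.458. As many as 145 of 4126 genes (3.51%) had a rho with Prss34 as high as that of Cpa3, counting Cpa3, and 73 (1.77%) had one with Mcpt8. Seen from Cpa3, 27 genes (0.654%) had a rho as high as that of Prss34 and 9 (0.218%) as high as that of Mcpt8. In CD34-positive cells rho was 0.741 with Prss34 (r 0.762, and 0.753 without the 2 cells farthest for Prss34) and 0.734 with Mcpt8 (r 0.734, and 0.599 without the 2 farthest for Mcpt8, cells 1 and 41). There, 2 of 6590 genes (0.0303%) reached that rho with Prss34, and 3 (0.0455%) with Mcpt8. Prss34 itself had the highest rho with Cpa3 in this gate, and Mcpt8 came next, as 2 of 6590 genes (0.0303%). The difference between gates was not tested.

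**Figure D3:**
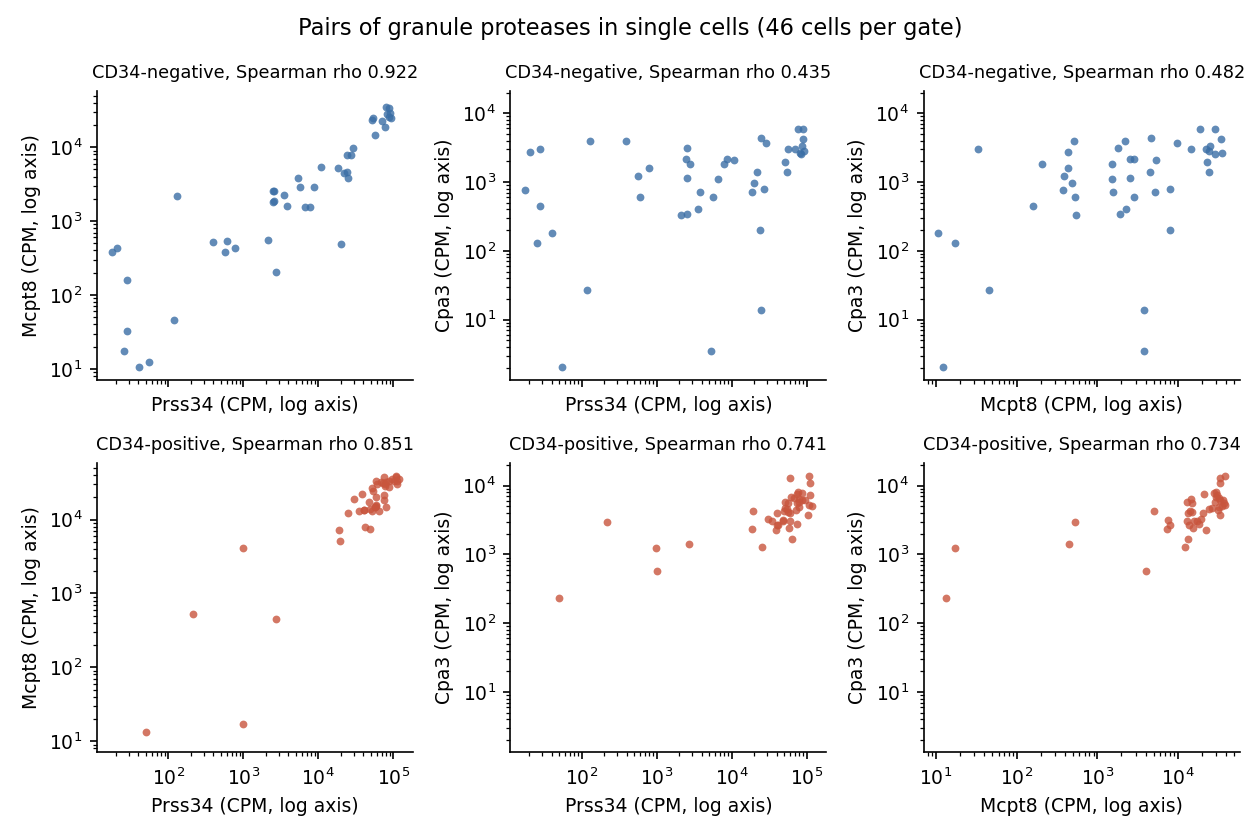
Pairs of proteases in single cells, 46 cells per gate, as CPM on log axes, CD34-negative above and CD34-positive below, with Spearman rho in each panel. Prss34 and Mcpt8 form a narrow band in both gates, at rho 0.922 and 0.851, and the CD34-negative cells scatter most against Cpa3, at rho 0.435 and 0.482.

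In the CD34-positive gate, 5 cells (1, 6, 35, 40 and 41) stood apart from the others. They had 50.1 to 2716 CPM of Prss34, and the other 41 began at 18679 CPM. Within those 41 cells, rho was 0.791 for Prss34 with Mcpt8, 0.656 for Prss34 with Cpa3 and 0.643 for Mcpt8 with Cpa3. The 5 cells had 167 to 1138 CPM of Fcer1a, where the other 41 had 423 to 8351 CPM and 3 of them were below 1138. They had 1.67 to 17.5 CPM of Cd200r3, against 5.15 to 3231 CPM in the others, of which 1 (cell 38) was below 17.5. The basophil marker sum was 4408 to 4963 CPM in cells 1, 6, 35 and 41, the lowest of the gate, and 8561 CPM in cell 40, against 6414 to 17803 CPM in the others. Mpo, the myeloperoxidase gene of myeloid progenitors and neutrophils, stood at 199 to 8238 CPM in the 5 cells and 0 to 9869 CPM in the others. Kit was at 0 CPM in cell 1 and at 268 to 668 CPM in cells 6, 35, 40 and 41. Its gate median was 6.02 CPM, and the others reached 489 CPM (cell 38). Cd34 was at 6.67, 91.8 and 19.8 CPM in cells 1, 6 and 35, beside a gate median of 20.3 CPM. Cells 40 and 41 had the highest Cd34 of the gate, at 424 and 288 CPM. Ambiguous reads, those that fit more than 1 gene, were 49.0% of gene plus ambiguous reads in cell 1, 34.9% in cell 35, 30.8% in cell 6, 19.5% in cell 41 and 16.4% in cell 40, against a median of 19.1% in the gate. Cell 1 also had the fewest genes of the gate (4975) and its lowest number of gene reads per ERCC read (2.93). Cells 6, 35, 40 and 41 had 8557 to 9556 genes, against a gate median of 7511.5. The part of these markers and library measures in the low levels was not tested.

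In CD34-negative cells the serine proteases were correlated with measures of the whole library. The rank correlation with gene reads per ERCC read was 0.708 for Prss34 and 0.708 for Mcpt8, and 0.326 for Cpa3. With the number of genes found it was 0.703, 0.631 and 0.25. In CD34-positive cells rho with gene reads per ERCC read was 0.125 for Prss34, 0.0246 for Mcpt8 and 0.277 for Cpa3. Prss34 there had a rho of -0.565 with the mitochondrial share of reads. The part of these measures in the co-expression was not tested. Scaled by ERCC reads, rho of Cpa3 in CD34-negative cells was 0.603 with Prss34 and 0.616 with Mcpt8, but the median over the 4124 other genes ranked, for their mean rho with the 3 proteases, also went up under this scaling, from 0.06 to 0.23.

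The genes most like the 3 proteases were found by the mean of their rho with each. Ctsg, the cathepsin G gene next to Mcpt8, ranked 1 in CD34-negative cells with a mean rho of 0.66 and 3 in CD34-positive cells with 0.54. Its rho was highest with Mcpt8 in the CD34-negative gate (0.80) and with Cpa3 in the CD34-positive gate (0.68). Fcer1a ranked 7 in CD34-negative cells (0.54) and 1 in CD34-positive cells (0.65), and its summed level was 3012 and 3185 CPM. Among the 8 basophil markers, log2 folds were above 0 for Fcer1a (0.08) and Ms4a2 (0.43) and below 0 for the other 6. Cd200r3 (-1.47), Hdc (-1.12), Itga2 (-1.68) and Cyp11a1 (-1.37) were at -1 or less. The markers had a median of -0.86, beside 0.19 for all genes. Under ERCC scaling this median was 0.11 beside 1.04, and 4 of the 8 were higher. Ctsg and Fcer1a were the only genes in the top 8 of both gates. Without cell 10, Ctsg still ranked 1 among CD34-negative cells (0.67) and Fcer1a ranked 13 (0.52). Without the 5 low CD34-positive cells, Fcer1a ranked 3 and Ctsg 12 in that gate. With these cells left out, neither gene was in the top 8 of both gates. Over all kept cells, the median of the other genes ranked was 0.06 among CD34-negative cells and -0.03 among CD34-positive cells.

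The others with high values in CD34-negative cells included Nucb1 (0.60), a calcium-binding protein of the Golgi, Slpi (0.59), a secreted inhibitor of serine proteases, Ap3s1 (0.56), a subunit of an adaptor complex that sorts proteins to lysosome-related granules, and Clec12a (0.54), an inhibitory lectin receptor of myeloid cells. In CD34-positive cells they included Cd63 (0.50), a membrane protein of granules, Golim4 (0.50), a Golgi membrane protein, Zcwpw1 (0.49) and Ms4a3 (0.49), a gene of myeloid progenitors. Without the 5 low cells, Fcer1a had a mean rho of 0.52 (rank 3), Ctsg 0.45 (rank 12) and Cd63 0.37 (rank 53). Ms4a3 then had 0.48 (rank 6), Golim4 0.43 (rank 18) and Zcwpw1 0.40 (rank 32). Cd63 and its pseudogene Cd63-ps, and the models Rpl3-ps1, Tmem250-ps and Gm12231, are uncertain, since reads could be split with near-identical copies, which was not tested.

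At the other end in CD34-negative cells were Cd7 (-0.56), a surface protein of lymphoid cells, Grina (-0.56), Ccl6 (-0.54), a chemokine, C3ar1 (-0.54), the receptor of the complement fragment C3a, Map3k1 (-0.53) and Arhgap45 (-0.53), beside the models Mir5110 (-0.59) and Gm9843 (-0.53). With ERCC scaling Cd7 stood at -0.52, Ccl6 at -0.49, Map3k1 at -0.46, C3ar1 at -0.36, Grina at -0.35, Mir5110 at -0.24, Arhgap45 at -0.14 and Gm9843 at 0.16, beside a median of 0.23 for the other genes ranked, so all 8 were still below it. Cd7 had a rho of -0.71 with Prss34 and -0.69 with Mcpt8, and Ccl6 of -0.70 and -0.63, while their rho with Cpa3 was -0.28 for both. Ccr2, a chemokine receptor on the monocyte and dendritic cell list, had -0.55 with Prss34, -0.50 with Mcpt8 and -0.08 with Cpa3. That list summed to 0 to 1709 CPM in the 45 cells other than cell 10, almost all of it Ccr2, and its part in these values was not tested. In CD34-positive cells the lowest named genes were Rsbn1 (-0.54), Cask (-0.52), Xist (-0.51), Asap1 (-0.49), Bckdha (-0.49) and Hnrnpul2 (-0.47), beside the models Mir5099 (-0.55) and Gm26917 (-0.50). Under ERCC scaling Rsbn1 stood at -0.44, Asap1 at -0.39, Bckdha at -0.37 and Cask at -0.33. Hnrnpul2 stood at -0.22, Xist at -0.05, Mir5099 at 0.07 and Gm26917 at 0.16, beside a median of 0.14. Without the 5 low CD34-positive cells Xist stood at -0.55 (rank 2 from the lowest), Rsbn1 at -0.47 (10), Mir5099 at -0.43 (21) and Cask at -0.42 (24). Asap1 then stood at -0.37 (63), Gm26917 at -0.36 (71), Bckdha at -0.35 (90) and Hnrnpul2 at -0.31 (158).

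**Figure D4:**
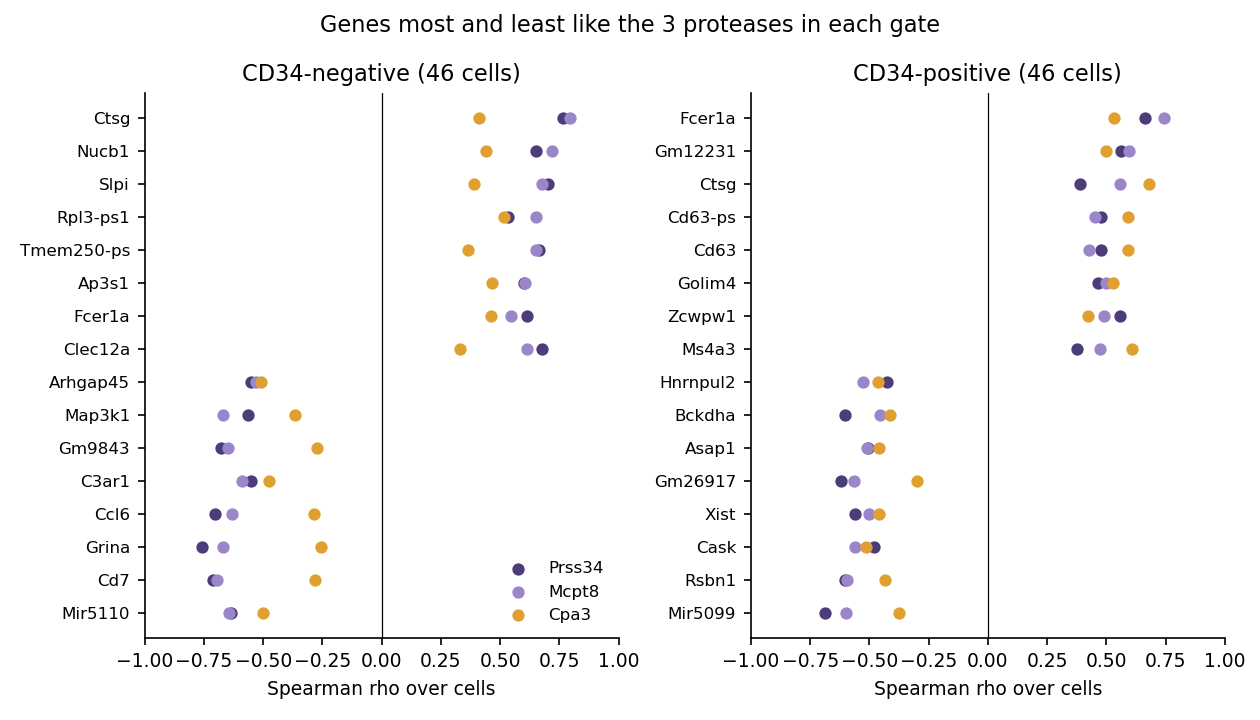
Spearman rho of 16 genes per gate with Prss34, Mcpt8 and Cpa3 over 46 cells, for the 8 genes with the highest and the 8 with the lowest mean. In the CD34-negative gate Ctsg, at the top, has 0.41 with Cpa3 against 0.77 with Prss34 and 0.80 with Mcpt8; the genes were chosen by the mean of the 3 values, 2 of which belong to closely correlated genes.

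Most close relatives of the 3 genes had few or no reads. Of 14 other genes of the mast cell protease and granzyme locus, 7 had 0 reads in both gates and only Ctsg and Gzmb had reads in at least 10 cells. Ctsg stood at 351 CPM among CD34-negative and 3859 CPM among CD34-positive cells, a log2 fold of 3.46. Gzmb stood at 16.4 and 15.05 CPM (log2 fold -0.11), but its fold was 0.82 without CD34-negative cell 32 and -1.32 without CD34-positive cell 10, the cells with most of its reads. The mast cell chymase genes Mcpt4 and Cma1 had no CD34-negative read, and 5 and 7 reads came from CD34-positive cells. Among 11 other tryptase-like genes only Prss28, the neighbour of Prss34, had reads in at least 10 cells, with 30.2 and 28.4 CPM (log2 fold -0.08, with 0.85 under ERCC scaling and 0.19 without CD34-negative cell 15). Prss28 had a rho of -0.04 with Prss34 over the CD34-positive cells. None of 7 other carboxypeptidase genes reached 10 cells, and Cpb1, the neighbour of Cpa3, had 77 and 72 reads.

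A few relatives came from single cells. Tpsab1, a mast cell tryptase, had 150 reads in the CD34-positive gate, all from cell 5, which had 57445 CPM of Prss34, 14917 CPM of Mcpt8 and 5555 CPM of Cpa3. Of 58 reads of Tpsb2, a second mast cell tryptase, 57 came from cell 28, and of 123 reads of Tpsg1 119 came from cell 29. These are 3 different cells, each with at least 57445 CPM of Prss34.

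The genes that move proteins into the endoplasmic reticulum and fold them were mostly higher in the CD34-positive gate, as the proteases were. Of 28 genes, 26 were higher, beside 58.9% of all genes, and 2 lower (Spcs1 at -0.25 and Srp14 at -0.20, both above 0 with ERCC scaling, and Spcs1 at 0.01 without CD34-negative cell 45), and 17 had a log2 fold of 1 or more, against 21.7% of all genes. The list's median was 1.14 beside 0.19 for all genes. Hspa5, the chaperone BiP, stood at 145 and 1135 CPM (2.96) and Calr, the chaperone calreticulin, at 221 and 1421 CPM (2.68). Sdf2l1 (2.72), Pdia6 (2.07), Creld2 (2.03) and Manf (1.82), other proteins of this compartment, were also among the largest. CD34-negative cell 31 held much of the lower level of some, and without it that level was 94.0 CPM for Hspa5 (log2 fold 3.58) and 13.7 CPM for Sdf2l1, against 25.7 with it (3.58). Within CD34-negative cells, 22 of 23 genes of the list that could be ranked had a positive rho with Prss34, beside 66.1% of the 4124 other genes that could be ranked, with a median of 0.33 beside 0.08. With Mcpt8 21 were positive (64.6% of those ranked), with a median of 0.32, and with Cpa3 18 (55.2%), with a median of 0.19. Within CD34-positive cells the medians were 0.13, 0.18 and 0.24, beside -0.03, -0.04 and -0.01 for the 6588 other genes ranked there. There 21 of 28 genes were positive with Prss34, 21 with Mcpt8 and 27 with Cpa3, beside 44.7%, 40.97% and 47.2% of those ranked. Hspa5 had 0.11, 0.00 and -0.02 with Prss34, Mcpt8 and Cpa3 over CD34-negative cells, and Calr had 0.41, 0.35 and 0.31. Over CD34-positive cells Hspa5 had 0.20, 0.18 and 0.23, and Calr 0.03, 0.18 and 0.28. Pdia3, a disulfide isomerase and the gene of the list with the highest value for Prss34 in CD34-negative cells, had 0.65, 0.52 and 0.43 among CD34-negative cells and 0.42, 0.37 and 0.50 among CD34-positive cells.

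Genes of the granule proteoglycan and of protease processing were close to the background. Of 19 genes, 11 (57.9%) were higher and 8 lower in the CD34-positive gate, beside 58.9% of all genes higher, and 16 (84.2%) were higher with ERCC scaling, beside 87.6%. The log2 fold was 1 or more for 4 genes, beside 21.7% of all genes, and -1 or less for 3, beside 10.1%, with a median of 0.43. Srgn, the serglycin core protein, stood at 927 and 1985 CPM (1.10), and its rho with the proteases ranged from 0.09 to 0.19 over CD34-negative cells and from -0.02 to 0.28 over CD34-positive cells. Ndst2, an enzyme that sulfates heparin chains, was higher (223 and 437 CPM, 0.97), and Chst15, which sulfates chondroitin chains, was lower (689 and 225 CPM, -1.61). Ctsc, which removes the activating dipeptide of granule serine proteases, stood at 95.7 and 94.7 CPM (-0.01, with 0.94 under ERCC scaling and 0.15 without CD34-negative cell 12).

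Of 8 protease inhibitor genes with reads in enough cells, 6 were higher and 2 lower, 3 by 1 or more and 1 by -1 or less, with a median of 0.50. Of all genes, 58.9% were higher, 21.7% by 1 or more, and 10.1% were at -1 or less. With scran or TMM factors 4 of the 8 were higher, beside 50.3% and 51.0% of all genes. The cystatin genes Cst3 (234 and 522 CPM, 1.15) and Cst7 (155 and 333 CPM, 1.10) were higher. Slpi was lower relative to gene reads (122 and 60.0 CPM, -1.01), with a log2 fold of -0.06 under ERCC scaling. Within CD34-negative cells its rho with Prss34 was 0.70. In CD34-positive cells its rho with Prss34 was 0.54.

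Transcription factor genes of basophils and mast cells had a lower median than all genes under each scaling. Of 10, 3 were higher and 7 lower in the CD34-positive gate, 0 by 1 or more and 2 by -1 or less, with a median of -0.39 beside 0.19. Of all genes 58.9% were higher, 21.7% by 1 or more, and 10.1% were at -1 or less. With ERCC scaling the median was 0.58 beside 1.04 and 8 of the 10 were higher beside 87.6%. With scran size factors the median was -0.61 beside 0.00 and 1 of the 10 was higher beside 50.3%, and with TMM factors -0.60 beside 0.02 and 1 beside 51.0%. Without the proteases in the total it was -0.30 beside 0.26. Gata2 stood at 2889 and 1919 CPM (-0.59, and 0.38 with ERCC scaling), and its rho with the 3 proteases ran from -0.26 to -0.05 in CD34-negative cells and from -0.07 to 0.00 in CD34-positive cells. Spi1 was lower (341 and 130 CPM, -1.38). Runx1 stood at 955 and 996 CPM (0.06, with -0.17 under scran size factors and -0.04 without CD34-positive cell 2), with rho of -0.37, -0.38 and -0.27 with Prss34, Mcpt8 and Cpa3 in CD34-positive cells and 0.28, 0.28 and 0.11 in CD34-negative cells. Mitf had 33 reads in the CD34-negative gate, all in cell 10, whose basophil marker sum was 45.6 CPM, and 16 reads in 2 CD34-positive cells.

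**Figure D5:**
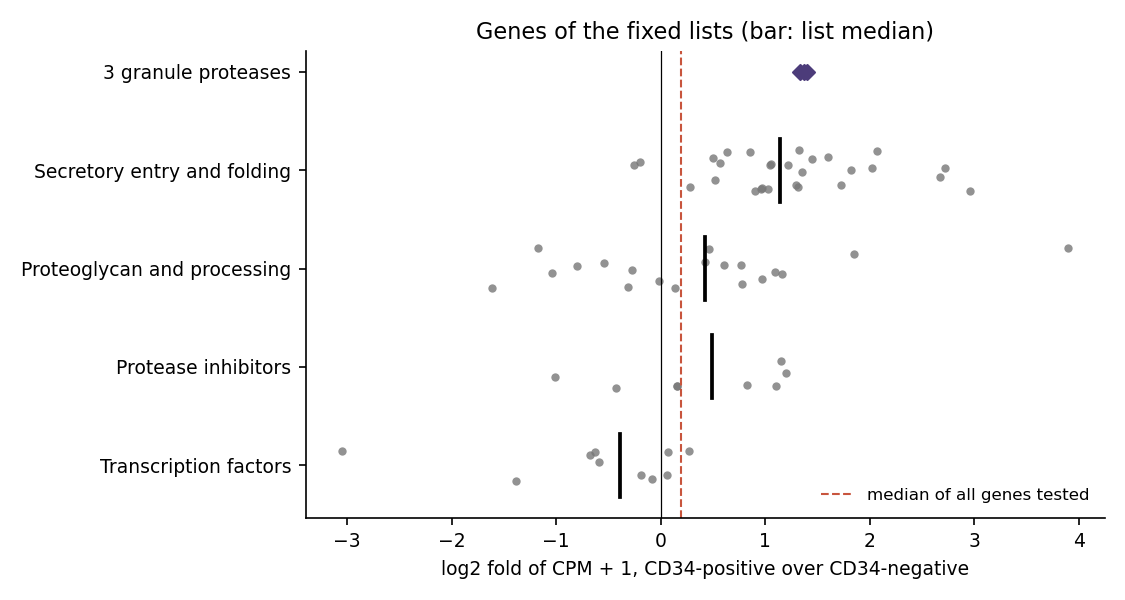
Log2 fold of CPM + 1, CD34-positive over CD34-negative, for the 3 proteases and the genes of 4 lists with reads in at least 10 cells, with a bar at each list's median and a dashed line at the median of all genes (0.19). The endoplasmic reticulum list lies mostly to the right, with a median of 1.14, and the transcription factors have a median of -0.39. Under ERCC scaling all genes have a median of 1.04 and the transcription factors 0.58.

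Progenitor and cell cycle genes were compared with the proteases within each gate. In CD34-negative cells Mpo had a rho of 0.59 with Prss34, 0.51 with Mcpt8 and 0.25 with Cpa3. Mki67, a gene of dividing cells, had 0.40, 0.35 and 0.30 there. Both were near the floor in this gate, with medians of 1.28 and 1.14 CPM and reads in 30 and 24 of 46 cells. Cell 36 alone held 45.3% of the gate's Mpo reads and 42.6% of its Mki67 reads. In CD34-positive cells Mpo had 0.04, 0.17 and 0.36, and Mki67 0.13, 0.17 and -0.05. Kit, the stem cell factor receptor, had -0.30, -0.16 and -0.04 there, and Cd34 -0.21, -0.25 and -0.09. The differences between gates were not tested.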

How the data were processed

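The authors deposited a single table of whole-number read counts per gene and cell, not normalized. Per the submitters' processing notes, GSNAP 2015-09-29, HTSeq 0.5.3p3 and the mm10 build were used. Per the labels, cDNA came from polyadenylated RNA amplified over 19 PCR cycles (a modified Smart-seq2 procedure), and single-end reads had 50 bases. The strand setting is not given in the sources used here. Reads carry no molecular identifiers, so intervals cover the counting error of reads only and not that of the molecules before amplification. Genes took 32.4% of all reads in the table, ERCC sequences 3.97%, ambiguous reads 7.68%, no annotated gene 33.03% and unaligned reads 22.9%, and only gene reads entered library sizes.

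The filter required 50000 gene reads, 1000 genes, mitochondrial reads under 20% and ERCC reads under 50%, which left out 2 of 94 cells. Cells were sorted singly and none were clustered, and no doublet caller was run. Counts of a gate were summed and divided by its gene reads. Folds are log2 ratios of CPM + 1, CD34-positive over CD34-negative. Co-expression is Spearman's rho within a gate. Symbols matched 45143 of 46078 identifiers. Promoters of all 3 genes were matched in the RefSeq table. No test was made. The calculations were tested on simulated data. Named genes are the 3 proteases, list genes, and the 8 highest and 8 lowest by mean rho in each gate, among genes with at least 10 CPM and reads in at least 23 cells of the gate. The genes, lists, threshold of 1000 CPM and rule were chosen with earlier results of these data known. R 4.3.3 ran scran 1.30.0 and edgeR 4.0.16, the latter for TMM factors alone. The rest used Python 3.11.15 with scipy 1.17.1, numpy 2.4.6, pandas 2.3.3 and, for figures, matplotlib 3.10.9.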

Additional observations from a re-analysis of the deposited data

Results flagged for a closer look

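The 2 cells left out for low depth also held protease reads, and 5 of the 6 values were above the 3 reads that a count of 0 allows. Cell 3 of the CD34-positive gate, with 31504 gene reads, had 53644 CPM of Prss34, 31012 CPM of Mcpt8 and 2825 CPM of Cpa3, where a count of 0 allows up to 95.2 CPM. Of the 46 kept cells of its gate, 19 were lower for Prss34, 34 for Mcpt8 and 12 for Cpa3. Cell 20 of the CD34-negative gate, with 24565 gene reads, had 16650 CPM of Prss34 and 6228 CPM of Mcpt8, where a count of 0 allows up to 122 CPM, and 2 reads of Cpa3, or 81.4 CPM, which is below it. Of the kept cells of its gate, 27 were lower for Prss34 and 32 for Mcpt8.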

How the results depend on the processing

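Of 141 values under other settings, 37 moved beyond their counting interval or, for rho, by over 0.1, and 0 changed sign. A share of cells cannot change sign, so that last count covers the folds and rho alone. In the order Prss34, Mcpt8, Cpa3, the log2 folds were 2.34, 2.36 and 2.30 with ERCC scaling, 1.46, 1.48 and 1.41 without the proteases in the total, 1.15, 1.17 and 1.10 with scran size factors, 1.17, 1.19 and 1.12 with TMM factors, and 3.27, 2.89 and 1.51 as ratios of medians. Means of per-cell CPM gave 1.30 for Prss34 and 1.37 for Mcpt8, and cells 7 to 42 gave 1.44 for Mcpt8 and 1.31 for Cpa3. Among settings chosen after seeing the data, removing CD34-negative cell 10 gave 1.36 for Prss34 and 1.39 for Mcpt8, and cells under 30% ambiguous reads gave 1.44, 1.45 and 1.47. In CD34-negative cells rho of Prss34 with Cpa3 was 0.603 with ERCC scaling and 0.553 in cells 7 to 42, and of Mcpt8 with Cpa3 0.616 with ERCC scaling. In CD34-positive cells under 30% ambiguous reads, rho of Prss34 with Cpa3 was 0.641. At 100 CPM the CD34-negative shares were 84.8%, 89.1% and 91.3%, and at 10000 CPM 43.5%, 23.9% and 0%. For Cpa3 in the CD34-positive gate the share was 100% at 100 CPM, 6.52% at 10000 CPM and 100% in cells under 30% ambiguous reads. The cause of these shifts was not tested.

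Leaving out each cell in turn gave folds of 1.33 to 1.48, 1.36 to 1.54 and 1.25 to 1.39. The rank correlation in CD34-negative cells was 0.917 to 0.940 for Prss34 with Mcpt8, 0.399 to 0.491 for Prss34 with Cpa3 and 0.447 to 0.533 for Mcpt8 with Cpa3, and in CD34-positive cells 0.841 to 0.875, 0.723 to 0.768 and 0.716 to 0.763. CD34-negative shares were 71.1% to 73.3%, 66.7% to 68.9% and 60% to 62.2%, and CD34-positive shares 93.3% to 95.6%, 91.1% to 93.3% and 95.6% to 97.8%. No paired analysis was possible because the cell numbers only name cells and no value comes from a test. Reads without molecular identifiers limit the lowest levels, where 1 to 31 reads stand behind a value, and no value covers differences between mice.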
